A study of Mus musculus with 8 samples.

Results

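The goblet and secretory loci Muc2, Muc5ac, Tff1, Tff2, Tff3, Spdef, Atoh1 and Agr2 were examined for H3K27ac, a histone acetylation of active promoters and enhancers, in mouse colon cancer organoids. Their 8 genes were covered by 5 windows of the mm9 genome, chosen with earlier results of these data known. Every H3K27ac peak overlapping a window was taken as a member, by position alone. This gave 8 of the 22731 peaks of the series: 3 in the window of Muc2 and Muc5ac, 3 in that of Spdef and 2 in that of Agr2. The window of Tff3, Tff2 and Tff1 and the window of Atoh1 held none. Acetylation was measured by CUT&RUN, in which an antibody guides a nuclease to release the DNA bound to the mark, in 3 libraries of control organoids (genotype AKP) and 3 of Gata6 knockout organoids (genotype Gata6KO_AKP). Both groups carry the AKP genotype, whose alleles the labels do not spell out. The labels name C57Bl6 as the recipient mice for all samples. They do not say how Gata6 was deleted, whether each line was 1 clone, or whether replicates came from cultures grown apart. The p-values therefore reflect only how far these libraries differ from one another, and that spread may be technical. The H3K4me3 and IgG libraries of control organoids were not analysed here, and the levels are without background subtraction.

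Secretory cells of the gut arise from progenitors that escape Notch signalling and switch on Atoh1, a basic helix-loop-helix factor that specifies the secretory lineage. Spdef, an ETS-family factor, acts further along and drives the maturation of goblet cells. Goblet cells make mucus from gel-forming mucins, of which Muc2 is the main one in the intestine, while Muc5ac is a mucin of stomach and airway. Agr2 is a disulfide isomerase of the endoplasmic reticulum that assists the folding of mucins, and the trefoil factors are small secreted peptides that accompany mucins and aid epithelial repair, Tff3 mainly in goblet cells and Tff1 and Tff2 mainly in stomach. Gata6, the gene deleted here, encodes a zinc-finger factor of the gut epithelium that binds DNA at sites with the core GATA.

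Because the deleted factor reads that core, the stretch of 250 bases before the transcription start is shown for the 4 of 8 genes matched in the RefSeq promoter table (GRCm38.p6), 5′ to 3′ on the gene's strand. Capitals mark GATAA, searched on both strands (TTATC in the printed letters where it lies on the other). These positions are GRCm38.p6 and cannot be set against the mm9 positions of the peaks: Muc2 chr7:141690090-141690339 (+ strand), Spdef chr17:27728952-27729201 (- strand), Atoh1 chr6:64728875-64729124 (+ strand) and Agr2 chr12:35992675-35992924 (+ strand).
Muc2: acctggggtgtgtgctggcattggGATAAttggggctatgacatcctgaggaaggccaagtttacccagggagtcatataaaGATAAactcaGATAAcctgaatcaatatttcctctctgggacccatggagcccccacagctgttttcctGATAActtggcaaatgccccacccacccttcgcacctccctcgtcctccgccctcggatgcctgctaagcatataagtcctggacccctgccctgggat
Spdef: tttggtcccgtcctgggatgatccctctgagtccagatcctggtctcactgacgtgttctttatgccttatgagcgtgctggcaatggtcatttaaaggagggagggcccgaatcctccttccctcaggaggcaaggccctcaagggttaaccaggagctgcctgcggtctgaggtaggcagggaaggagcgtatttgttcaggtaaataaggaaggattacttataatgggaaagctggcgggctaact
Atoh1: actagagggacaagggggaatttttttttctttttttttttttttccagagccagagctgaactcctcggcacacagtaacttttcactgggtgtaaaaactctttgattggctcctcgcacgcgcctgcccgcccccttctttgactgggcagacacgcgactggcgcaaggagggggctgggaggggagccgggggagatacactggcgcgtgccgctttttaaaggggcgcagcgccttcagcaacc
Agr2: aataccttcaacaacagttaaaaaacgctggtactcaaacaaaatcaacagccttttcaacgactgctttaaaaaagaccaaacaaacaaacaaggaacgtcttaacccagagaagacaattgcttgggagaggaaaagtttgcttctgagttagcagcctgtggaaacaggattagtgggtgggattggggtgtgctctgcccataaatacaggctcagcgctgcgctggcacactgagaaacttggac
The Muc2 stretch held GATAA 4 times, beginning 226, 168, 158 and 99 bases before the start. GATAA was not found in the stretches of Spdef, Atoh1 and Agr2. The shorter core GATA was not searched by itself, and it occurs, for example, in the Atoh1 stretch. Of 32851 such stretches in the table, 22.6% held GATAA. A match describes the letters only.

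The first question was where acetylation was found at these loci at all. Atoh1 lay in a wide stretch without peaks. Its window, on chromosome 6 from 64.60 to 64.80 Mb, belonged to a peak-free stretch of 3589 kb, from 61382497 to 64971418, and 84 of the 22700 gaps between neighbouring peaks in the genome were longer. The trefoil window, on chromosome 17 from 31.23 to 31.34 Mb, lay in a peak-free stretch of 530.1 kb, from 30871511 to 31401624, and 4.30% of gaps were longer. The median gap was 9.15 kb. These shares count gaps and not bases. Long gaps take up more of the genome, so a position falls in one more often than the shares imply. An empty window was not rare by itself: 61.9% of consecutive 200-kb tiles of chromosome 6, and 66.1% of consecutive 110-kb tiles of chromosome 17, held no peak. The table lists counts in called peaks only, so no level or upper limit can be given for the empty windows. For scale, the weakest peak of the table had a mean of 20.7 counts per library, and 99% of peaks had more than 65.7.

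The other 3 windows held peaks in part of their length. In the 220-kb mucin window, on chromosome 7 from 148.80 to 149.02 Mb, the 3 peaks occupied the first 21.2 kb and covered 8.16% of it. The first of them, 5116 bp wide, began before the window and reached only 1.98 kb into it. Its full counts nevertheless entered the sum of the window given below. The rest of the window fell in a peak-free stretch of 240.2 kb, from 148821190 to 149061419. The 90-kb Spdef window, on chromosome 17 from 27.81 to 27.90 Mb, had its first peak 67.2 kb in and a peak-free stretch before them from 27772590 to 27877153. Its 3 peaks covered 19.4% of the window, and the last ran past its end. In the 140-kb Agr2 window, on chromosome 12 from 36.62 to 36.76 Mb, a pair of narrow peaks starting 72.2 and 99.2 kb into the window covered 2.70%, and no peak was found for 472 kb before the first.

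No peak was assigned to a gene, since no mm9 annotation was used here. The placement of the genes in the windows rests on the windows as given. By gene order in RefSeq (GRCm38.p6), Ap2a2 and the mucin gene Muc6 precede Muc2, and the mucin gene Muc5b and Tollip follow Muc5ac. Pacsin1 and Ilrun flank Spdef. Agr3, a relative of Agr2, precedes it, and Tspan13 follows it. Abcg1 precedes Tff3, and Tmprss3 follows Tff1. The member peaks in the mucin and Spdef windows continued rows of peaks outside them, so those rows may belong to neighbouring genes, which was not tested.

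**Figure D1:**
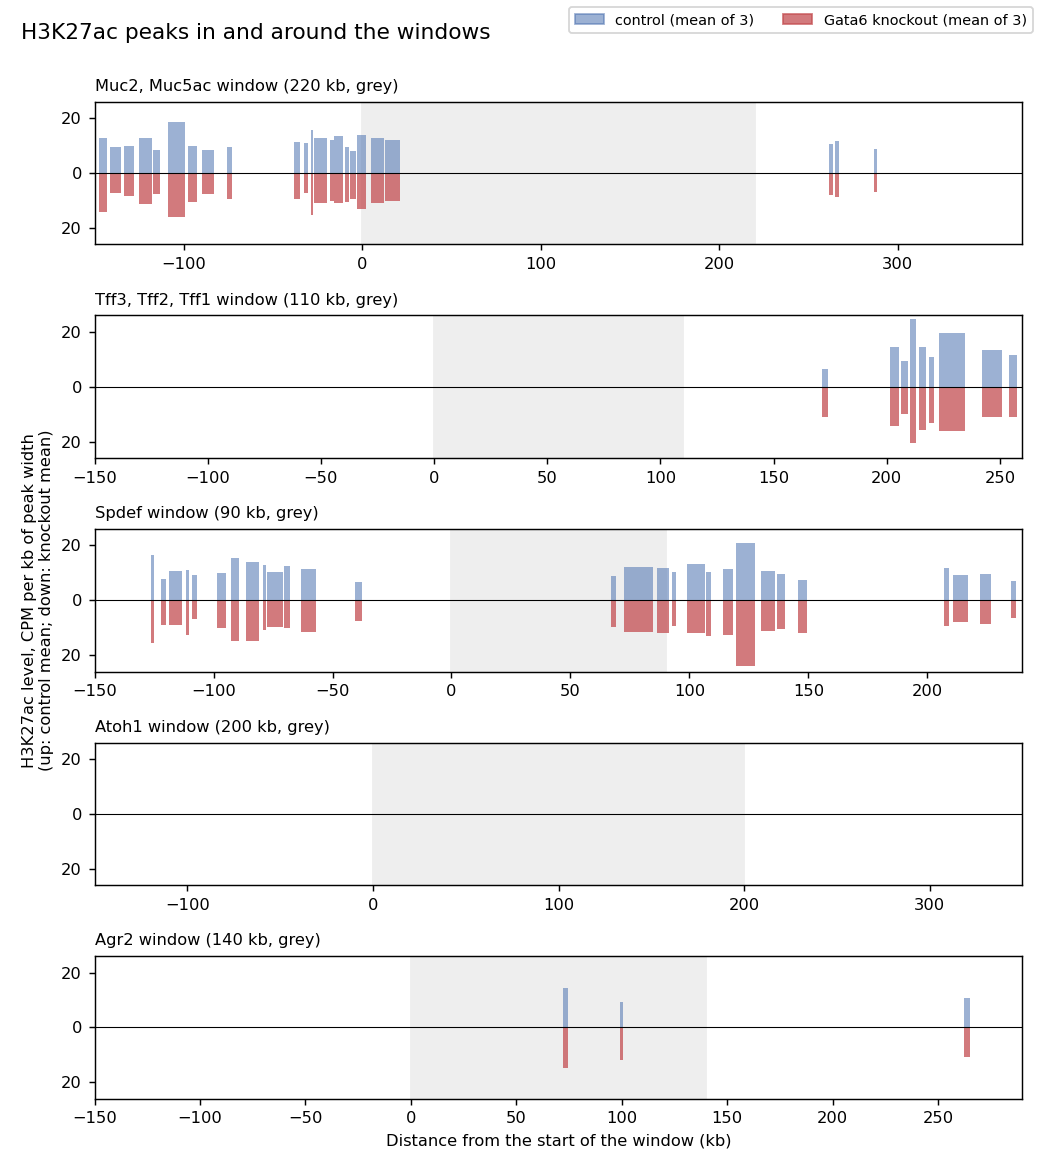
Peaks in the 5 windows (grey) and up to 150 kb on either side, plotted by distance from the window's start in kb. Bar width is peak width and bar height the mean H3K27ac level in CPM per kb of peak, upward for the 3 control and downward for the 3 knockout libraries; the Atoh1 and trefoil windows are empty, and the peaks of the mucin and Spdef windows sit at one edge.

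The levels that follow are edgeR's CPM, each peak's share of the reads in peaks of its library, scaled by TMM, a factor that aligns the bulk of peaks between libraries. Reads in peaks numbered 5141856 to 7026388 per library, and the member peaks held 70 to 1014 counts each. A rise or fall of every peak at once is invisible on this scale. All 22731 peaks were tested together, and 21.8% were called at an adjusted p under 0.05, 11.6% higher and 10.2% lower in the knockout.

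Of the 8 member peaks, 1, or 12.5%, was called lower and 0 higher in the knockout (quasi-likelihood test of edgeR, Benjamini-Hochberg adjusted). With 8 peaks, these shares do not set the secretory loci apart from the background. DESeq2 also gave 1 lower and 0 higher, and at an unadjusted p under 0.05 there were 2 lower and 0 higher. The log2 fold changes ranged from -0.26 to 0.37 with 4 below and 4 above 0. Their median was -0.04, against -0.01 over all peaks. The groups did not overlap at 3 of the 8 peaks, or 37.5%, while 33.8% of all peaks had groups that did not overlap.

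The mucin window held the 1 called peak, which was not assigned to Muc2 or Muc5ac. This peak, the third of the window, lay on chromosome 7 from 148812677 to 148821189 and was 8513 bp wide. It measured 102, 112 and 95.7 CPM in control replicates 1 to 3 and 90.2, 88.5 and 79.5 CPM in knockout replicates 1 to 3. Every knockout library was below every control library. The level fell from 103 ± 8.31 to 86.1 ± 5.73 CPM (SD, n = 3 each). The log2 fold change was -0.26 ± 0.09 (SE; adjusted p = 0.0264, edgeR's quasi-likelihood test). The call was lost without control replicate 1 (adjusted p = 0.0618), without control replicate 2 (adjusted p = 0.182) and without knockout replicate 3 (adjusted p = 0.156). It was also lost under a scaling that follows the mean count (adjusted p = 0.0524).

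The second peak of this window, from 148804629 to 148812082, measured 92.5, 89.0 and 102 CPM in control and 83.2, 80.9 and 82.4 CPM in knockout replicates 1 to 3. Its groups also did not overlap, but with a log2 fold change of -0.20 ± 0.10 (SE) it did not pass the test (adjusted p = 0.121, edgeR). The first, from 148796865 to 148801980, had overlapping groups of 67.3 to 73.4 CPM in control and 64.6 to 69.3 CPM in knockout libraries. Its log2 fold change was -0.09 ± 0.11 (SE; adjusted p = 0.641, edgeR).

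Summed over its 3 peaks, the mucin window measured 268, 272 and 265 CPM in control and 243, 234 and 227 CPM in knockout replicates 1 to 3. All knockout libraries lay below all control libraries. The sum fell from 268 ± 3.70 to 235 ± 7.85 CPM (SD, n = 3 each). The knockout level was 0.874 times the control level, with a 95% confidence interval of 0.807 to 0.948. It passed the test when the 3 peaks entered edgeR's fit as 1 row among 22730 (adjusted p = 0.00775), though not without knockout replicate 3 (adjusted p = 0.0556) or under the scaling that follows the mean count (adjusted p = 0.0777). The exact two-sided permutation test over libraries gave p = 0.1, the smallest that 3 against 3 allow.

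Within 50 kb on either side of the window lay 10 other peaks. Of these, 8 had log2 fold changes below 0, while 51.1% of all peaks did, and 2 were called lower and 0 higher (edgeR), against 10.2% and 11.6% of all peaks. The nearest peak before the window, 3.62 kb away from 148792962 to 148796380, went the other way, from 27.6 ± 1.43 to 32.1 ± 7.59 CPM (SD, n = 3 each), with overlapping groups (adjusted p = 0.375, edgeR). The nearest peak after the peak-free stretch, 41.4 kb past the window from 149061420 to 149063839, went from 25.8 ± 1.51 to 19.3 ± 0.543 CPM without passing the test (adjusted p = 0.0892, edgeR). Its groups did not overlap. The 74 peaks within 1 Mb of the window and outside it had a median log2 fold change of -0.06. Of these 74, 3 (4.05%) were called higher and 4 (5.41%) lower, both below the shares of all peaks.

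At Spdef, the goblet maturation factor, none of the 3 peaks was called. The widest member of the whole set, 12123 bp from 27882445 to 27894567 on chromosome 17, measured 144, 148 and 145 CPM in control and 142, 128 and 143 CPM in knockout replicates 1 to 3. Each knockout library lay below each control library, though replicates 1 and 3 of the knockout were close to the lowest control. The log2 fold change was -0.08 ± 0.08 (SE; adjusted p = 0.513, edgeR). The narrow peak from 27877154 to 27879037 held 14.5 to 18.5 CPM in control and 16.7 to 20.7 CPM in knockout libraries, with overlapping groups. The peak from 27896528 to 27901511 held 54.5 to 63.3 CPM in control and 53.7 to 63.9 CPM in knockout libraries, again overlapping.

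The summed Spdef window measured 219, 221 and 223 CPM in control and 218, 213 and 215 CPM in knockout replicates 1 to 3. The groups were apart by a narrow margin, which the exact two-sided permutation test scored at p = 0.1, its smallest value. The fold was 0.973 with a 95% confidence interval of 0.894 to 1.06, and the sum did not pass edgeR's test (adjusted p = 0.733). Within 50 kb on either side lay 8 other peaks, 2 of them below 0. Of the 8, 1 was called higher and 0 lower (edgeR), against 11.6% and 10.2% of all peaks. The called peak, from 27929386 to 27937649, went from 173.5 to 198.5 CPM without overlap of the groups (adjusted p = 0.0214, edgeR). The 79 peaks within 1 Mb and outside the window had a median log2 fold change of -0.12, with 2.53% called higher and 13.9% lower.

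At Agr2, the mucin-folding isomerase, neither peak was called. The peak from 36692166 to 36694413 on chromosome 12 measured 36.9, 31.6 and 28.9 CPM in control and 38.0, 33.7 and 26.9 CPM in knockout replicates 1 to 3. The groups overlapped fully, and the log2 fold change was 0.02 ± 0.15 (SE; adjusted p = 0.956, edgeR). The peak from 36719169 to 36720694 was the weakest member, with 12.2, 17.1 and 12.9 CPM in control and 20.2, 17.4 and 16.7 CPM in knockout replicates 1 to 3. It had the highest fold change of the 8, with a log2 value of 0.37 ± 0.25 (SE), but control replicate 2 lay among the knockout values and the test was not passed (adjusted p = 0.309, edgeR). Its 95% confidence interval, from -0.11 to 0.85 on the log2 scale, was also the widest of the 8. The window's sum was 46.5 ± 4.07 CPM in control and 51.0 ± 7.27 CPM in knockout libraries (SD, n = 3 each). This gave a fold of 1.10 with a 95% confidence interval of 0.922 to 1.31 (adjusted p = 0.520, edgeR), and the exact two-sided permutation p was 0.4. The 10 peaks within 1 Mb and outside the window had a median log2 fold change of 0.19. Of these 10, 0 were called higher and 1 (10%) lower, against 11.6% and 10.2% of all peaks.

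**Figure D2:**
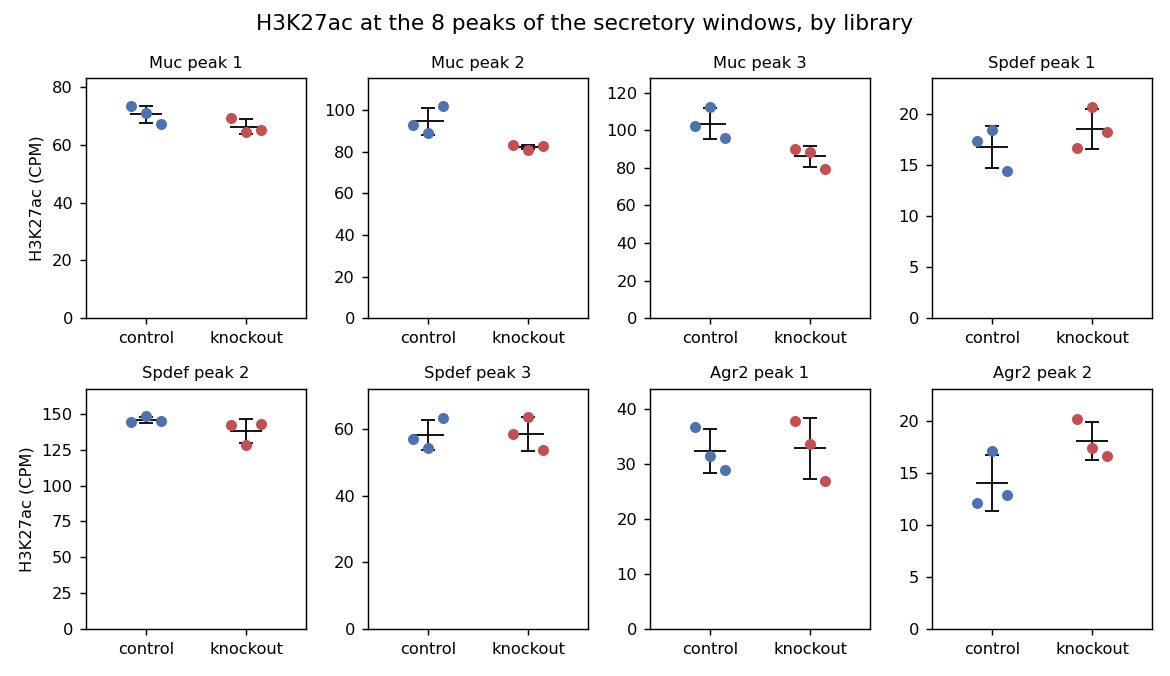
H3K27ac level in CPM at each of the 8 member peaks, with 1 point per library, a bar at the mean of 3 libraries and whiskers of 1 SD. Peaks are numbered along the chromosome within each window and were not assigned to genes. Control and knockout libraries do not overlap at peaks 2 and 3 of the mucin window and at peak 2 of the Spdef window.

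**Figure D3:**
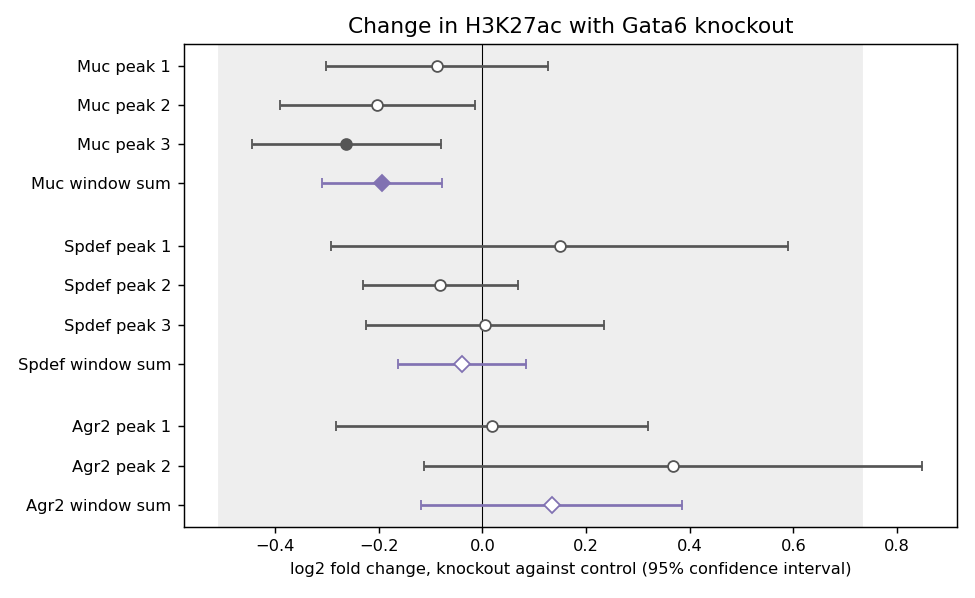
Log2 fold change of knockout against control with its 95% confidence interval for the 8 member peaks (circles) and the summed windows (diamonds); filled symbols passed an adjusted p of 0.05 in edgeR's test. Grey spans the 5th to 95th percentile of all 22731 peaks, -0.51 to 0.73; all member values lie inside it.

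The member peaks also differed among themselves in form. The mucin and Spdef windows held broad peaks of 4984 to 12123 bp, apart from the Spdef peak of 1884 bp, and the Agr2 peaks were 2248 and 1526 bp wide, against a median of 2690 bp over all peaks. Per kb of width, control levels ranged from 8.91 CPM per kb at the narrow Spdef peak to 14.4 CPM per kb at the first Agr2 peak, which stood at the 84.1 percentile of all peaks. The median of all peaks was 10.8 CPM per kb. In width, the first Agr2 peak stood at the 35.2 percentile. The first peak of the mucin window was nearly as dense in control, at the 80.1 percentile. In the mucin window, density in control went from 13.8 to 12.7 to 12.1 CPM per kb along the chromosome, and in the knockout from 13.0 to 11.0 to 10.1 CPM per kb.

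The empty windows can be described only by the peaks that bound them. Of the 10 peaks nearest to the 5 windows, 1 on each side, 2 were called higher and 1 lower (edgeR). Over all peaks, 11.6% were called higher and 10.2% lower. With 10 peaks, these counts do not set the neighbours apart from the background. The 3 called peaks bounded the trefoil and Atoh1 windows. The peak 61.6 kb after the trefoil window, from 31401625 to 31404113, measured 18.1, 13.6 and 17.6 CPM in control and 24.0, 29.4 and 30.3 CPM in knockout replicates 1 to 3. The groups did not overlap, and it rose 1.69-fold, a log2 fold change of 0.76 ± 0.19 (SE; adjusted p = 6.09e-04, edgeR). On the other side, 358 kb before the window, the peak from 30869264 to 30871510 rose 1.42-fold (adjusted p = 0.0245, edgeR). Among the 45 peaks within 1 Mb of the trefoil window, 5 (11.1%) were called higher and 3 (6.67%) lower. Within 1 Mb of the Atoh1 window lay 5 peaks, with a median log2 fold change of 0.32. Of these 5, 1 (20%) was called higher and 0 lower. Around Atoh1, the peak 171 kb after the window went from 12.5 ± 3.63 to 18.1 ± 3.13 CPM (SD, n = 3 each) with overlapping groups (adjusted p = 0.124, edgeR). The next peak before the window lay 3218 kb away and fell from 22.8 ± 2.73 to 12.1 ± 4.90 CPM (adjusted p = 8.22e-04, edgeR). Whether any of these distant peaks acts on a trefoil gene or Atoh1 was not tested.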

How the data were processed

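H3K27ac CUT&RUN was analysed in 3 control and 3 Gata6 knockout libraries. The deposited values are raw counts of reads, not normalized, over 1 peak set common to the 6 libraries. Per the submitters' processing notes, the build was mm9 and the tools were SEACR, bedtools, Bowtie, SAMtools and Picard, named without versions or roles. How peaks were merged and counted is not given in the sources used here. Between 82.8% and 88.9% of counts in each library were even, so both mates of a pair may have been counted, and counting error is then wider than the counts imply.

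All 22731 peaks were fitted with edgeR 4.0.16 in R 4.3.3 (TMM, expression filter, quasi-likelihood test, group as the only term, Benjamini-Hochberg over all peaks). For sums, the peaks of each window were replaced by 1 row. Standard errors came from the F statistic. The fit was tested on simulated data. Alternatives were DESeq2 1.42.0, other scalings and filters, halved counts, a replicate block, other window edges, each library left out, and no chromosome 5. Members, windows and lists were chosen with earlier results of these data known. Values are given in every library for the called member and for the strongest member of each window, with the other members by range or in full. The peaks nearest to each window were described after the values had been seen. Other secretory genes on the list were not placed, since no mm9 annotation was used here.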

Additional observations from a re-analysis of the deposited data

How the results depend on the processing

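Across the 19 settings tried, the number of member peaks called higher was 0 in 18, and 1 when windows were widened by 50 kb to 26 peaks. The number called lower was 1 in 13 of them. It was 0 with trended offsets (a loess of the log ratio on the mean count) and at an adjusted p under 0.01, 3 in the widened windows, and 0 to 1 when each library was left out. The summed mucin window was below 0 in all 18 alternatives, at -0.23 to -0.14, and passed the test in 16. It did not with trended offsets (-0.14), and with each library left out it ranged from -0.22 to -0.17, failing without knockout replicate 3. The third peak of the mucin window passed in 12 of 16. The summed Spdef window, never called, turned to 0.011 with trended offsets and 0.050 in the widened window, and was -0.05 to -0.03 with a library left out. The summed Agr2 window, never called, stayed at 0.03 to 0.24. The sign of 2 uncalled peaks near 0 varied: the first Agr2 peak was -0.10 to 0.15 with a library left out (-0.06 without control replicate 3, -7e-04 without knockout replicate 2) and -1e-04 without chromosome 5, and the third Spdef peak was -0.059 to 0.071 (-0.0077 without control replicate 1, -0.04 without control replicate 2) and -0.014 without chromosome 5. The cause of these changes was not tested. Nothing in the labels ties libraries of the same number together. Their deviations from the group means correlated at 0.00591 to 0.0668, and those of control and knockout libraries of different numbers at -0.0489 to 0.0403. The replicate block changed no call and gave -0.19 for the summed mucin window, -0.04 for Spdef and 0.13 for Agr2. The intervals narrow with depth: at the weakest member, with 70 to 116 counts per library, the 95% confidence interval ran from -0.11 to 0.85 on the log2 scale, and at the widest, with 706 to 1014, from -0.23 to 0.07.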
